A study of Mus musculus with 19 samples.

Results

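Tumors that arose in the Nestin lineage of the mouse cerebellum were compared with the normal Nestin-expressing progenitors (NEPs) of that tissue, across all genes measured on Affymetrix Mouse430+2 arrays. The NEP tumor group came from mice of the genotype Nestin-CreERT2/Ptch1C/C, and the NEP group of Nestin+ neuronal progenitors. Arrays were chosen by their titles, which gave 4 NEP tumor arrays and 4 NEP arrays, 8 of the 19 arrays in the series. For context, 4 further arrays held GNP tumor cells, of the genotype Math1-CreERT2/Ptch1C/C, and 4 held granule neuron progenitors (GNPs), labelled Math1+ (Math1 is another name for Atoh1). The last 3 arrays held cerebellar progenitors labelled CD133+, Lin-, here called NSCs. All mice were of the C57BL/6 strain, and the cells were taken from the cerebellum with no culture and no treatment before RNA extraction. CreERT2 is a recombinase that tamoxifen switches on, so the tumor model depends on which cells expressed Nestin when it was switched on. The labels give neither that time, nor the age or sex of the animals, nor the way the tumor cells were collected. Separate animals for each array are not stated, so the p-values measure only the spread between these arrays, which may be technical.

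Granule neurons descend from progenitors of the outer cerebellar surface that express the transcription factor Atoh1 and divide in response to Sonic hedgehog. The receptor Ptch1 restrains this pathway by holding back Smoothened, and its loss leaves the GLI transcription factors active, which gives rise to medulloblastoma in mice and people. Nestin marks neural progenitors in general, radial glia and their cerebellar descendants, the Bergmann glia, express a shared set of glial genes, and Ptf1a specifies the inhibitory neurons of the cerebellum.

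Values are log2 probe set signals, so a difference of 1 is a 2-fold difference in array signal. A gene was called when limma's test gave an adjusted p below 0.05 over the 12148 genes tested, and a group mean below the median of its arrays is called dim. Numbers in the titles placed the tumor and NSC arrays in one run and the NEP and GNP arrays in another. Poly-A spike-in RNAs averaged 6.67 ± 0.28 (SD, n = 11) in the run with the tumors and 8.82 ± 0.25 (SD, n = 8) in the run with the NEPs, so run and group cannot be told apart in NEP tumor against NEP. Levels in NSCs, which share the tumors' run, are therefore given beside the main results. The difference of differences, NEP tumor minus NEP less GNP tumor minus GNP, is also given, since a shift of one run against the other, if equal in both pairs, drops out of it. The actin 3'/5' log2 difference, a sign of RNA quality, did not move equally in the pairs: it was 0.48 ± 0.06 in NEP tumors and 0.55 ± 0.09 in NEPs, but 0.84 ± 0.02 in GNP tumors and 0.52 ± 0.02 in GNPs (SD, n = 4 each). Its part in the results was not tested.

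The NEP arrays formed 2 pairs. Correlations across genes, which are not independent replicates, were 0.995 between NEP arrays 1 and 2 and 0.988 between arrays 3 and 4, but 0.940 to 0.943 across the pairs, and 0.984 to 0.996 among the NEP tumor arrays. The 19 microglia and macrophage markers tested had a median signal of 3.82, 3.61, 5.16 and 4.45 on the NEP tumor arrays, against 8.99, 9.05, 3.74 and 2.24 on the NEP arrays. NEP arrays 1 and 2 thus lay far above every tumor array for these markers, and NEP array 4 below every one. Pericyte, fibroblast and meningeal markers split the same arrays, with a median signal of 8.64, 8.65, 5.16 and 4.94 on the 4 NEP arrays, against which the NEP tumor arrays had 4.25 to 4.79. The part of these cells in the gene results was not tested as such, and counts are repeated below with NEP arrays 3 and 4 only. In bulk samples, fewer cells of a type and less RNA per cell cannot be told apart.

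**Figure D1:**
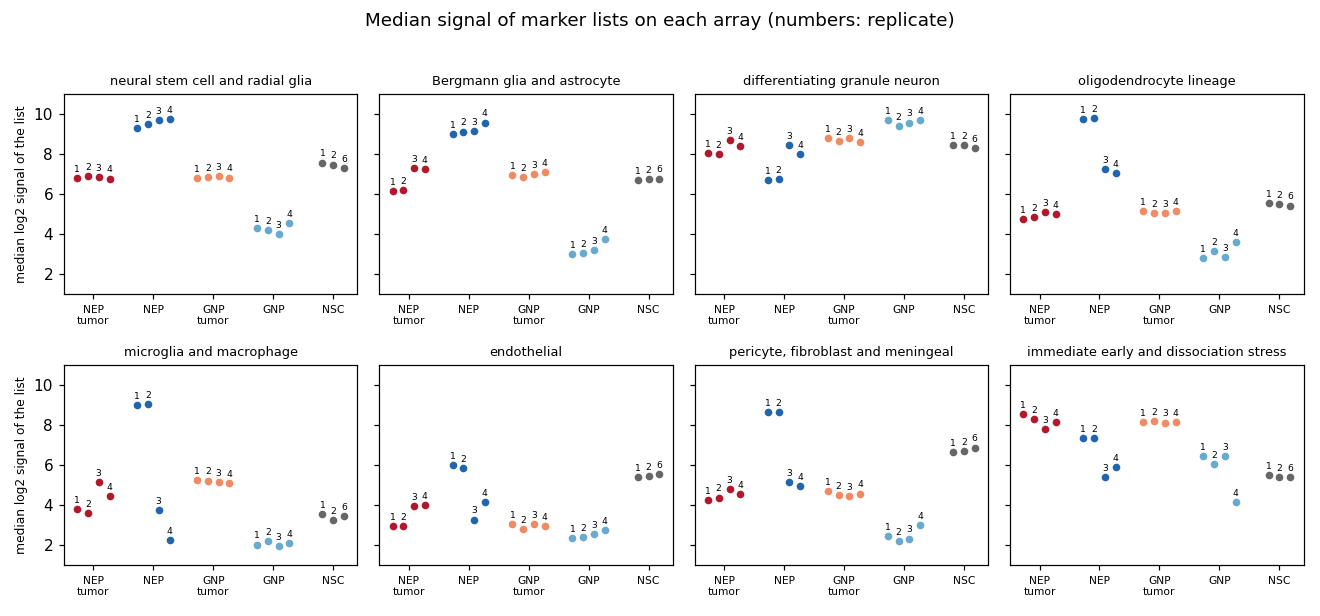
Median log2 signal of 8 marker lists on each array (points, numbered by replicate) in NEP tumors, NEPs, GNP tumors, GNPs and NSCs. Radial glia and Bergmann glia lists stood lower on every NEP tumor array than on every NEP array, and the microglia list lay near 9 on NEP arrays 1 and 2 but below 4 on NEP arrays 3 and 4.

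NEP tumors differed from NEPs across most of the measured transcriptome. Of the genes tested, 8365 were called (68.9%), 4399 higher in NEP tumors (36.2%) and 3966 lower (32.6%). Among large differences, 1864 genes were called lower by at least 2-fold (15.3%) and 1070 higher by at least 2-fold (8.81%). This imbalance was smaller with each array centred on its tested genes, with 1653 lower and 1364 higher, and with the most variable probe set, with 1967 lower and 1619 higher. The 4 tumor arrays and the 4 NEP arrays did not overlap for 6691 genes (55.1%). The median difference over all genes tested was 0.05, and it became 0.18 when each array was centred on the median of its tested genes, so differences near these values have no settled direction. Against NSCs 5387 genes were called (44.3%), 23.9% higher in NEP tumors and 20.4% lower. With NEP arrays 3 and 4 only, 7483 of the 12148 genes were called, 3796 higher in NEP tumors and 3687 lower. Every share of called members below should be read against the background of its own comparison.

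The 4 genes that mark the comparison behaved as follows. Atoh1, the selector gene of granule neurons, had signals of 10.50, 10.67, 10.31 and 10.41 in NEP tumors, against 2.85, 2.38, 5.67 and 4.90 in NEPs. Its tumor arrays lay close together and far above all NEP arrays, among which arrays 3 and 4 were the higher pair. The difference was 6.52 ± 0.48 (SE, adjusted p = 3.1e-09), and 5.19 with NEP arrays 3 and 4 only. Ptf1a, its counterpart for inhibitory neurons, read 1.76, 1.94, 1.81 and 2.02 in NEP tumors, against 9.99, 9.94, 10.14 and 10.51 in NEPs. The tumor signal was dim, at the level of GNPs (2.07), while NSCs, in the tumors' run, stood at 7.74. The difference of -8.26 ± 0.12 (SE, adjusted p = 3.06e-18) was the largest fall among the genes called.

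Gli1, a transcription factor and a direct target of Hedgehog signalling, gave 8.87, 9.03, 8.53 and 8.77 in NEP tumors, against 6.93, 6.44, 6.78 and 8.10 in NEPs. All tumor arrays were higher, but NEP array 4 came within reach of the lowest tumor array. The difference was 1.74 ± 0.26 (SE, adjusted p = 1.75e-05). Cdkn2a, which encodes the cell cycle inhibitor p16Ink4a and the p53 activator p19Arf, read 6.65, 7.10, 4.89 and 6.11 in NEP tumors, against 1.78, 1.90, 1.61 and 1.89 in NEPs. It was dim in NEPs and varied more between tumor arrays than Atoh1, with NEP tumor array 3 the lowest. In the tumors Cdkn2a rose by 4.39 ± 0.30 (SE, adjusted p = 1.22e-09), by 5.08 on tumor arrays 1 and 2 and by 3.71 on tumor arrays 3 and 4.

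**Figure D2:**
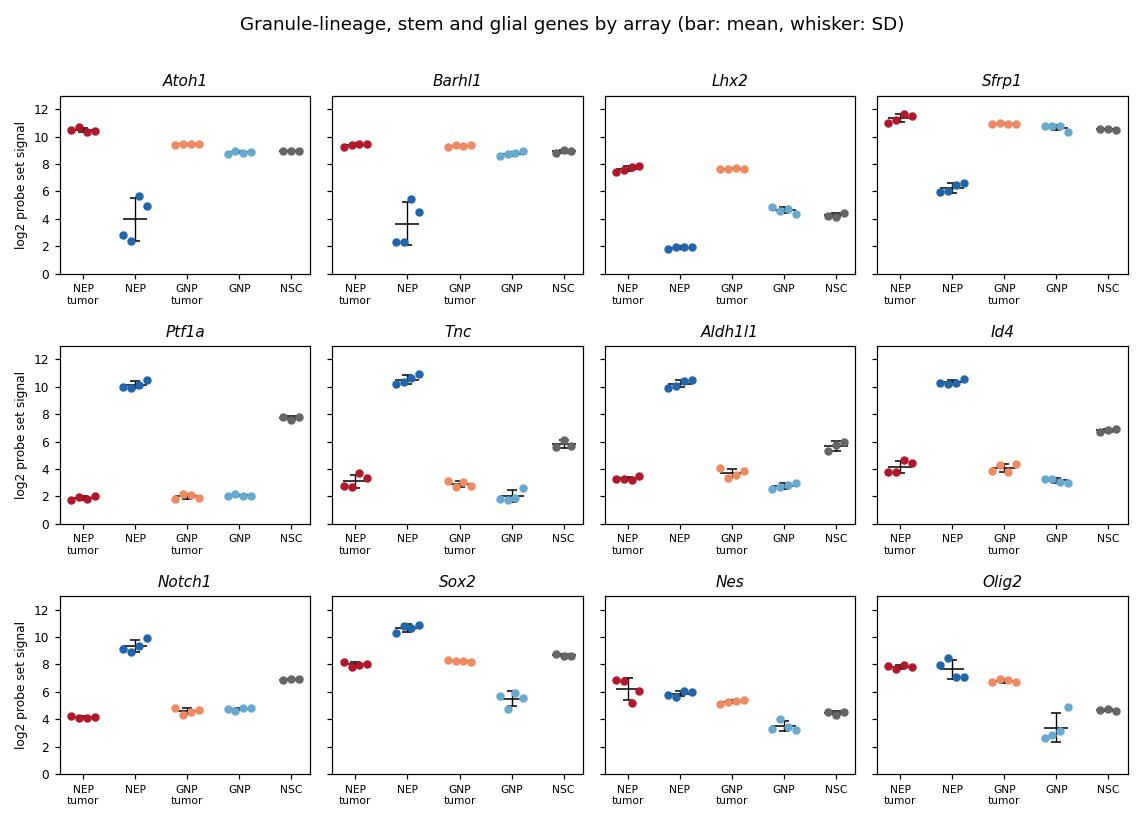
Log2 signal of 12 genes on each array (points), with the group mean (bar) and SD (whisker), in NEP tumors, NEPs, GNP tumors, GNPs and NSCs. Atoh1, Barhl1, Lhx2 and Sfrp1 were higher on all 4 NEP tumor arrays than on all 4 NEP arrays, Ptf1a, Tnc, Aldh1l1, Id4, Notch1 and Sox2 were lower, and the arrays overlapped for Nes and Olig2.

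Of 20 markers of granule neuron progenitors tested, 13 rose in NEP tumors relative to NEPs, 3 fell and 4 were not called, with a median difference of 0.43. Relative to NSCs, 4 rose and 5 fell, with a median of 0.07. The rises were uneven. Atoh1, the homeodomain factors Barhl1, Barhl2, Lhx2 and Uncx, and the neuronal factors Nhlh1 and Mab21l1 rose by 3.70 to 6.52. Zinc finger genes of the Zic family, which NEPs already expressed, moved little: Zic1 averaged 12.17 in NEP tumors and 11.85 in NEPs, a rise of 0.32. Zic4 fell by 0.41, and Zic2 and Zic5 were not called. With NEP arrays 3 and 4 only, 12 markers rose and 3 fell.

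Barhl1, which Atoh1 activates in granule progenitors, read 9.24, 9.42, 9.49 and 9.48 in NEP tumors, against 2.33, 2.31, 5.43 and 4.47 in NEPs. The same NEP pair, arrays 3 and 4, was again the higher one, and against it alone Barhl1 rose by 4.46, not 5.77, and Uncx by 2.97, not 5.30. Lhx2 read 7.44, 7.56, 7.76 and 7.84 in NEP tumors, against 1.77, 1.97, 1.94 and 1.91 in NEPs. Here the NEP arrays were uniformly dim, and the rise of 5.75 ± 0.10 (SE, adjusted p = 7.1e-17) also held against NSCs, by 3.41 (adjusted p = 8.2e-13), and against GNPs, by 3.03 (adjusted p = 7.4e-13). Atoh1 likewise exceeded its level in NSCs by 1.54 (adjusted p = 0.023) and in GNPs by 1.62 (adjusted p = 0.011), whereas Barhl1 was not called against either. Pax6, shared by granule progenitors and radial glia, averaged 9.26 in NEP tumors and 9.59 in NEPs and was not called. Hes6, a bHLH factor of differentiating progenitors, fell by 1.28.

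Genes of differentiating granule neurons split, with 17 of 27 tested risen, 10 fallen and a median of 1.70. Among those that rose, the NeuroD factor Neurod1 averaged 11.70 in NEP tumors and 9.36 in NEPs, and the neuronal tubulin Tubb3 averaged 9.79 in NEP tumors and 6.72 in NEPs. Stmn2, a regulator of neurite microtubules, read 10.70, 10.63, 10.78 and 10.79 in NEP tumors, against 4.33, 4.57, 9.10 and 8.31 in NEPs. The NEP arrays spanned a wide range, so the difference of 4.15 became 2.02 with NEP arrays 3 and 4 only. Cbln1, a synapse organiser secreted by granule neurons, rose by 5.11 ± 0.60 (SE, adjusted p = 1.04e-06). Restricting the NEPs to arrays 3 and 4 made this 3.47.

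The neuronal genes that fell included receptors and adhesion molecules of migrating granule neurons. The netrin receptor Unc5c gave 2.96, 2.58, 4.63 and 4.18 in NEP tumors, against 7.37, 7.58, 8.77 and 8.43 in NEPs. Tumor arrays 1 and 2 were the lowest and no tumor array reached a NEP array. NEP tumors also stood below GNPs, with a difference of -5.46, and below NSCs, with one of -4.59. Contactin 1 (Cntn1) fell by 3.35, plexin A2 (Plxna2) by 3.10 and the synaptic vesicle protein Syt1 by 2.26. Neurod2, a later NeuroD factor, fell by 1.29, against the rise of Neurod1. With NEP arrays 3 and 4 only, 15 of these neuronal genes rose and 9 fell, and relative to NSCs 6 rose and 9 fell, with a median of 0.12.

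Stem cell and radial glia genes fell. Of 20 tested, 15 fell, 1 rose and 4 were not called, with a median difference of -2.25, and with NEP arrays 3 and 4 only 16 fell and 1 rose. Tenascin C (Tnc), a matrix protein of radial glia, read 2.74, 2.71, 3.69 and 3.32 in NEP tumors, against 10.23, 10.34, 10.62 and 10.91 in NEPs. Both groups were tight and 7.41 apart (adjusted p = 4.7e-14). The endothelin receptor Ednrb fell by 6.50, the homeodomain protein Hopx by 5.91 and the brain lipid-binding protein Fabp7 by 3.57. The glutamate transporter Slc1a3 fell by 2.66 and vimentin (Vim) by 2.09.

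The stem cell factor Sox2 gave 8.17, 7.85, 8.0 and 8.05 in NEP tumors, against 10.28, 10.79, 10.68 and 10.90 in NEPs. It fell by 2.64 ± 0.19 (SE, adjusted p = 2.13e-09) but stayed well above its level in GNPs, by 2.52 (adjusted p = 1.3e-08). Prom1, which encodes CD133, fell by 1.75. Sox9, a factor of glial progenitors, was the exception that rose, averaging 8.54 in NEP tumors and 7.61 in NEPs. Gfap and Sox1 were not called.

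Nestin itself (Nes), whose expression defines the NEPs, read 6.84, 6.80, 5.17 and 6.04 in NEP tumors, against 5.78, 5.65, 6.06 and 6.01 in NEPs. The arrays overlapped, and the difference of 0.34 ± 0.27 (SE, adjusted p = 0.279) was not called. Its 3 probe sets disagreed, with differences of 0.34, -1.42 and 1.01. NEP tumor array 3 decided the call: without it, Nes rose by 0.69 (adjusted p = 0.00563). The defining marker of the NEP group thus has no settled direction on these arrays.

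Bergmann glia and astrocyte genes fell almost as a block, 21 of 23 tested, with 1 risen, 1 not called and a median of -2.62. The count was the same, 21 fallen and 1 risen, with NEP arrays 3 and 4 only. Aldh1l1, a folate enzyme used as an astrocyte marker, read 3.25, 3.29, 3.23 and 3.46 in NEP tumors, against 9.94, 10.07, 10.40 and 10.53 in NEPs. It fell by 6.93 ± 0.17 (SE, adjusted p = 2.23e-15). The water channel Aqp4 kept more signal and more spread, with 5.97, 6.20, 8.56 and 7.91 in NEP tumors, against 11.37, 11.48, 11.01 and 11.35 in NEPs. Tumor arrays 3 and 4 were the higher pair, and no tumor array reached the NEPs. Gdf10, a Bergmann glia ligand of the BMP family, averaged 7.53 in NEP tumors and 11.71 in NEPs. The calcium-binding protein S100b rose, averaging 8.68 in NEP tumors and 7.68 in NEPs.

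NSCs, in the tumors' own run, gave other values for these glial lists. Of the radial glia genes, 11 fell and 4 rose relative to NSCs, with a median of -0.47, and of the Bergmann glia and astrocyte genes 10 fell and 6 rose, with a median of -0.23. GNPs stood lower than both: the radial glia list had a median signal of 6.78 to 6.91 on the NEP tumor arrays, 9.32 to 9.75 on the NEP arrays and 4.01 to 4.54 on the GNP arrays. NEP tumors thus lay between NEPs and GNPs for these genes. GNP tumors did so too, with 6.79 to 6.91 for the radial glia list. For the Bergmann glia and astrocyte list the NEP tumor arrays had 6.16 to 7.30 and the GNP tumor arrays 6.86 to 7.09.

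Genes of other cerebellar lineages moved both ways. Of 12 genes of the inhibitory and Purkinje lineage, 5 fell, 4 rose and 3 were not called, shares near the background. Their median of -0.35 became 0.10 without NEP replicate 3. The proneural factors Neurog2 and Neurog1 fell with Ptf1a, by 6.39 and 5.34, and the LIM factor Lhx5 fell by 4.39. Olig3, a bHLH factor of dorsal hindbrain progenitors, went the other way, with 7.11, 6.86, 7.51 and 7.33 in NEP tumors, against 1.85, 1.91, 2.11 and 1.61 in NEPs. It was dim in all NEP arrays and averaged 8.51 in GNP tumors, 3.66 in GNPs and 2.60 in NSCs. Against NSCs, 3 of the inhibitory and Purkinje list rose and 4 fell.

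Of 11 oligodendrocyte lineage genes, 7 fell, 1 rose and 3 were not called. Nkx2-2, a homeodomain factor of this lineage, fell by 6.37, and Sox10 by 3.23. The receptor Gpr17 read 2.50, 2.58, 2.92 and 2.83 in NEP tumors, against 10.07, 9.83, 5.0 and 5.01 in NEPs, so its fall of 4.77 became 2.30 with NEP arrays 3 and 4 only. Olig2, a factor of oligodendrocyte and other progenitors, gave 7.88, 7.65, 7.96 and 7.79 in NEP tumors, against 7.99, 8.44, 7.10 and 7.06 in NEPs. The tumor arrays lay below NEP arrays 1 and 2 and above NEP arrays 3 and 4. The difference of 0.17 ± 0.38 (SE, adjusted p = 0.695) was not called, nor was that of 0.74 with NEP arrays 3 and 4 only (adjusted p = 0.12). Relative to NSCs Olig2 rose by 3.15 (adjusted p = 1e-05). The growth factor receptor Pdgfra rose by 0.59. Against NSCs, 4 of the oligodendrocyte list rose and 3 fell, with a median of -0.50.

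**Figure D3:**
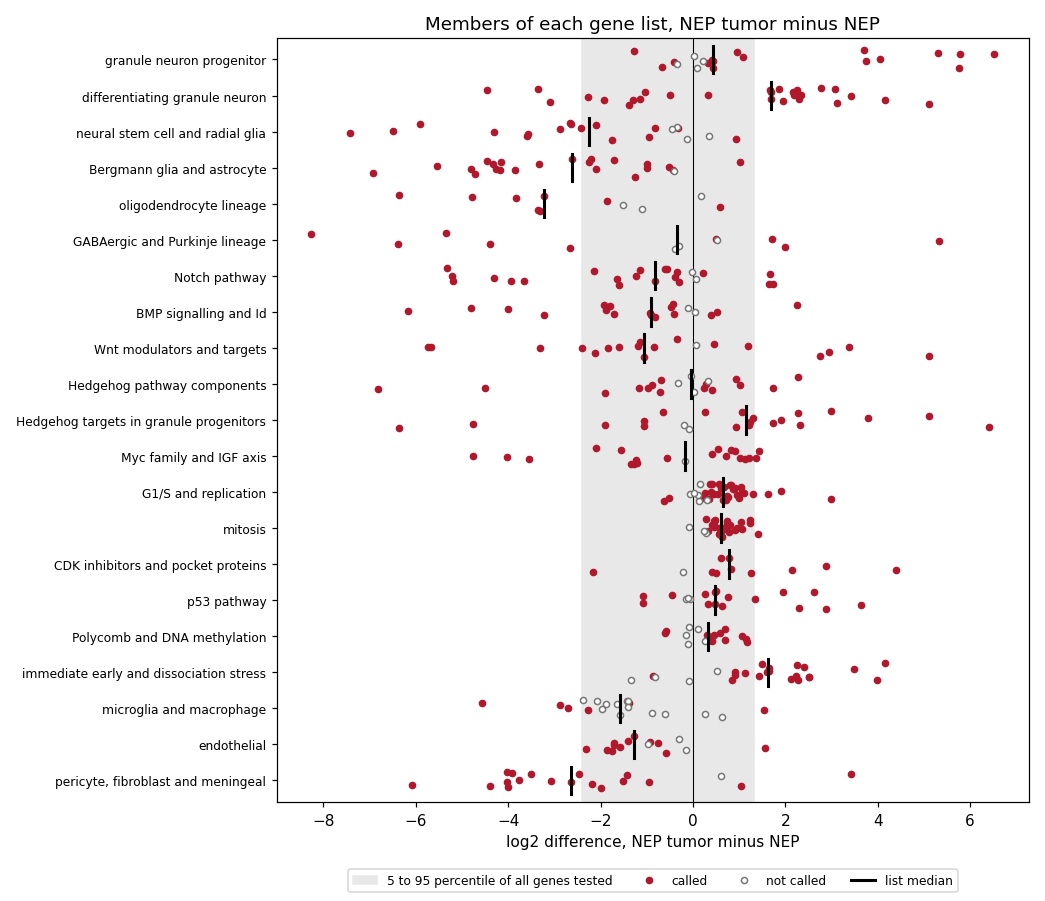
Log2 difference, NEP tumor minus NEP, of each tested member (points) of 21 gene lists, filled where called and open where not, with the list median (black bar) and the 5 to 95 percentile range of all genes tested (grey band, -2.40 to 1.33). Glial, stem cell, Notch and BMP lists reached far below the band, and the Notch and BMP lists held members above it too. Granule neuron progenitor genes, immediate early genes and CDK inhibitors reached above it. Lists that reached beyond it on both sides included differentiating granule neuron genes, Hedgehog components and targets, Wnt genes, and inhibitory and Purkinje genes.

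In Notch signalling, ligands on one cell activate receptors on the next and maintain radial glia. RNA signal was lower for most of the Notch genes tested, with ligands, receptors and targets among them. Of 23 genes, 17 fell, 4 rose and 2 were not called, with a median of -0.82. The receptor Notch1 gave 4.26, 4.06, 4.11 and 4.16 in NEP tumors, against 9.10, 8.91, 9.37 and 9.96 in NEPs. Its fall of 5.19 ± 0.17 (SE, adjusted p = 4.51e-14) was matched in size by the receptor Notch3, at 5.32, and the ligand Dll1, at 5.22, which became dim. The target Hes5 fell by 4.31, the feedback inhibitor Nrarp by 3.65 and Hes1 by 1.15. Hey1, another effector, rose by 1.66, as did Dtx1, a ubiquitin ligase of the pathway, by 1.72, and the fringe enzyme Mfng by 1.65. The DNA-binding partner Rbpj was not called (-0.02). Relative to NSCs, 12 genes of the list fell and 6 rose.

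In the BMP pathway and its Id targets, 14 of 19 genes fell, 3 rose and 2 were not called, with a median of -0.92. Id4, an inhibitor of bHLH factors, read 3.79, 3.81, 4.66 and 4.45 in NEP tumors, against 10.32, 10.24, 10.30 and 10.57 in NEPs, a fall of 6.18 (adjusted p = 1.59e-14). Id3 fell by 4.80 and Id1 by 1.93, while Id2 rose by 0.53. Relative to NSCs, 9 of the list fell and 3 rose. Among receptors, Bmpr1b fell by 4.00, and by 1.55 in the mean of all its probe sets. Among ligands, Bmp7 fell by 1.70 and Bmp5 rose by 2.26. Bmp6 fell by 3.23, and by 1.47 with NEP arrays 3 and 4 only.

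Wnt modulators and targets moved both ways, with 12 of 19 fallen, 6 risen and 1 not called. The ligand Wnt5a fell by 5.74 and the secreted protein Dkk3 by 5.66. The negative feedback target Axin2 fell by 1.14. The secreted inhibitor Sfrp1 read 11.02, 11.24, 11.66 and 11.53 in NEP tumors, against 5.92, 5.99, 6.47 and 6.62 in NEPs, a rise of 5.11 ± 0.15 (SE, adjusted p = 2.31e-14). Its relative Sfrp2 rose by 2.75, the receptor Fzd7 by 3.38 and the inhibitor Nkd1 by 2.94. Relative to NSCs, 7 of the Wnt list rose and 7 fell, with a median of -0.03.

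Of 19 Hedgehog components tested, 7 rose, 8 fell and 4 were not called, shares near the background, and the median was -0.03. Smo and Sufu, the signal transducer and its downstream brake, were not called, with differences of -0.03 and 0.01. Ptch1 read 11.59, 11.39, 11.45 and 11.41 in NEP tumors, against 10.27, 10.33, 10.58 and 10.90 in NEPs. Every tumor array was higher, by 0.94 on average (adjusted p = 5.87e-07), and all 3 Ptch1 probe sets rose. The position of these probe sets relative to the altered part of Ptch1C is not given in the sources used here, so Ptch1 signal does not check the deletion.

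Among the GLI factors, Gli1 and the activator Gli2 rose, by 1.74 and 1.01. Gli3, which acts mainly as a repressor, fell, with 2.82, 2.66, 2.99 and 2.93 in NEP tumors, against 7.32, 6.92, 7.43 and 7.75 in NEPs. Its difference of -4.50 ± 0.16 (SE, adjusted p = 1.77e-13) held in the same direction against GNPs (-3.02) and NSCs (-3.90), and the mean of all its probe sets gave -3.0. The ligand-binding co-receptor Boc rose by 2.28 and its relative Cdon fell by 0.96. Scube2, which releases the Hedgehog ligand from cells, fell by 6.82, and the ligand-binding inhibitor Hhip fell by 1.90. Relative to NSCs, 5 of the Hedgehog components rose and 5 fell, again near the background.

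Genes listed as Hedgehog targets in granule progenitors rose in 14 of 22 cases, fell in 6 and were not called in 2, with a median of 1.14. Hsd11b2, a glucocorticoid-inactivating enzyme, read 9.95, 9.80, 10.35 and 10.07 in NEP tumors, against 2.04, 2.35, 5.67 and 4.52 in NEPs. The rise of 6.40 ± 0.53 (SE, adjusted p = 1.47e-08) was 4.95 with NEP arrays 3 and 4 only. Sox18 rose by 3.80, and the neurotrophin receptor Ntrk3 by 2.32. The growth regulator Mycn gave 9.91, 10.02, 10.44 and 10.25 in NEP tumors, against 8.40, 8.63, 9.19 and 9.53 in NEPs, a rise of 1.22. Nkx2-2 and Hhip, which are on this list too, fell by 6.37 and 1.90, and every Hhip probe set fell. Igf2, a growth factor, ran against the list with 4.96, 4.75, 5.91 and 5.56 in NEP tumors, against 11.88, 11.88, 8.56 and 7.92 in NEPs. NEP arrays 1 and 2 carried most of that gap, which was -4.76 overall and -2.94 with NEP arrays 3 and 4 only. With these arrays alone, 13 Hedgehog targets rose and 6 fell, and relative to NSCs 15 rose and 4 fell.

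Cell cycle genes rose, by small amounts. In G1/S and replication, 29 of 37 rose, 2 fell and 6 were not called, with a median of 0.66. Among mitosis genes, 26 of 29 rose, none fell and 3 were not called, with a median of 0.60. With NEP arrays 3 and 4 only, 22 G1/S genes rose and 3 fell, and 20 mitosis genes rose and none fell. Relative to NSCs, in the tumors' run, 14 G1/S genes fell and 3 rose (median -0.10). Of the mitosis genes 6 fell relative to NSCs, a share near the background, and 1 rose (median -0.19).

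Cyclin D1 (Ccnd1) read 10.89, 11.005, 10.53 and 10.77 in NEP tumors, against 8.74, 8.90, 9.02 and 8.95 in NEPs. The groups were tight and separate, with a rise of 1.90 ± 0.09 (SE, adjusted p = 7.76e-12), while Ccnd2 rose by 0.26 and Ccnd3 fell by 0.62. The kinase Cdk6 gave 11.52, 11.37, 11.72 and 11.60 in NEP tumors, against 8.43, 8.21, 8.96 and 8.70 in NEPs. Its rise of 2.98 stood apart from its partner Cdk4, which was not called (0.16). The transcription factor E2f1 rose by 1.30, and the replication origin factors Cdc45, Cdc6 and Cdt1 by 1.62, 1.05 and 1.00. Among mitotic genes the scaffold protein Anln rose by 1.41, the kinase Aurka by 1.23 and the factor Foxm1 by 1.23. The choice of probe set changed some of these sizes: the mean of all probe sets gave 0.83 for Cdc45, 0.74 for Anln and 0.61 for Aurka, and the most variable probe set gave 3.15 for Ccnd1. The proliferation marker Mki67 averaged 10.88 in NEP tumors and 10.47 in NEPs, a rise of 0.41 with overlapping arrays.

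**Figure D4:**
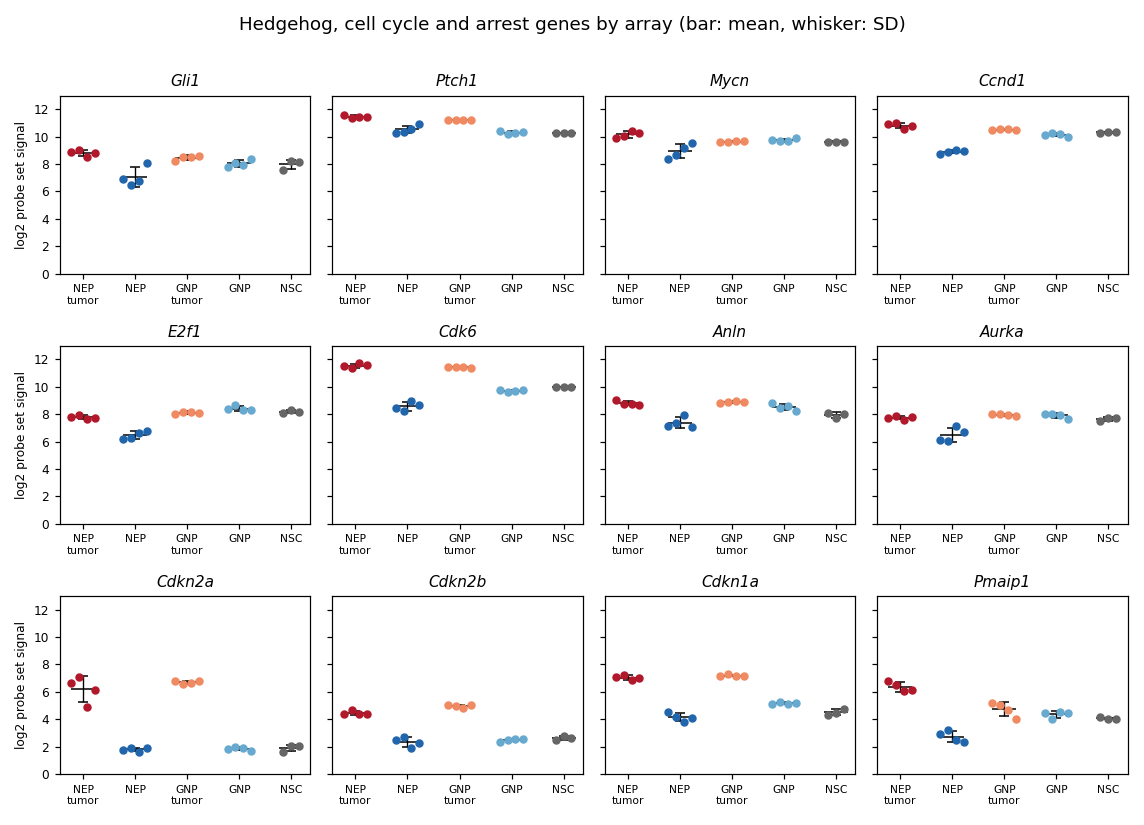
Log2 signal of 12 Hedgehog, cell cycle and arrest genes on each array (points), with the group mean (bar) and SD (whisker), in NEP tumors, NEPs, GNP tumors, GNPs and NSCs. All 12 genes were higher on every NEP tumor array than on every NEP array, and Cdkn2a and Cdkn2b were higher in both tumor groups than in the 3 normal ones.

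The promoters of the cell cycle and Hedgehog lists were searched for motifs through which such genes are known to be regulated. Lists of replication and mitosis genes hold such motifs whatever the arrays show, so the matches do not bear on the rise. For comparison with the counts below, 29 of 37 G1/S genes and 26 of 29 mitosis genes rose. Promoter sequences were those of RefSeq on GRCm38.p6, from 250 bases before to 50 after the transcription start. The E2F motif was searched as TTTCCCGC or TTTGGCGC, the CHR (cell cycle genes homology region) as TTTGAA and the CCAAT box as CCAAT, all on both strands, and none of these strings contains another. E2F letters were present in 11 of 29 G1/S genes with a promoter (37.9%), of which 8 rose, in 0 of 24 mitosis genes, and in 1.8% of 27025 genes. CHR letters were present in 18 of 24 mitosis genes (75%), of which 17 rose, and in 20.2% of all genes. CHR letters were in 5 of the G1/S genes (17.2%). CCAAT was present in 17 of 24 mitosis genes (70.8%), in 19 of 29 G1/S genes (65.5%) and in 41.1% of all genes. The GLI motif, searched as GACCACCCA, was in 0 of 12 Hedgehog targets, 0 of 17 Hedgehog components and 0.289% of all genes. At so low a share a match in so few genes was unlikely from the start, so these counts say nothing about GLI sites. These matches describe the letters and do not show that a factor bound. Cdc6, with an E2F match in capitals (chr11:98907901-98908200, plus strand), and Aurka, with CHR and CCAAT matches in capitals (chr2:172370521-172370820, minus strand), are shown as one example from each list.
Cdc6: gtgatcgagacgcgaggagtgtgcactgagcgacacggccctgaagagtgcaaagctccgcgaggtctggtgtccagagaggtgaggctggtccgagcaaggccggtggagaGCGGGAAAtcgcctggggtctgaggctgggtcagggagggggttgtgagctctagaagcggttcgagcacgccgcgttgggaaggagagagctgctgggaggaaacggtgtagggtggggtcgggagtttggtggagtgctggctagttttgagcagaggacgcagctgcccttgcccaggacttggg
Aurka: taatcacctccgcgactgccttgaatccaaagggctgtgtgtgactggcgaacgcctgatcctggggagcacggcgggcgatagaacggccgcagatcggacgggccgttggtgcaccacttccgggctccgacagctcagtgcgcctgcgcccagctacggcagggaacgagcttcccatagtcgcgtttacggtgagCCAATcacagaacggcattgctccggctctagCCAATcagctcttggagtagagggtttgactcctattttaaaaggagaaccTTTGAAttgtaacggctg

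Genes that restrain the cell cycle rose as well. Of 11 CDK inhibitors and pocket proteins, 9 rose, 1 fell and 1 was not called, with a median of 0.78, and with NEP arrays 3 and 4 only 9 rose and 2 fell. Relative to NSCs 6 rose and 2 fell. Cdkn2b, the neighbour of Cdkn2a that encodes p15Ink4b, read 4.41, 4.71, 4.38 and 4.39 in NEP tumors, against 2.48, 2.68, 1.87 and 2.28 in NEPs, where it was dim. Cdkn1a, which encodes p21, read 7.06, 7.26, 6.85 and 7.0 in NEP tumors, against 4.55, 4.19, 3.78 and 4.13 in NEPs, a rise of 2.88 ± 0.13 (SE, adjusted p = 5.15e-12). Cdkn1b rose by 1.26. Cdkn1c, which encodes p57, fell by 2.15.

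Cdkn2a signal was present in tumors and near the bottom of the scale in each normal population. It averaged 6.19 in NEP tumors, 1.79 in NEPs, 6.69 in GNP tumors, 1.85 in GNPs and 1.91 in NSCs. The rise against NSCs, in the same run, was 4.28 (adjusted p = 2.1e-08). The difference of differences between NEP tumor minus NEP and GNP tumor minus GNP was -0.44 (adjusted p = 0.38) and was not called. In RefSeq the gene has 2 start sites 12427 bases apart on the minus strand of chromosome 4, the upstream one for p19Arf and the downstream one for p16Ink4a, and the 1 probe set used cannot tell their transcripts apart. Both start regions are shown, with the 1 E2F match, in the upstream one, in capitals (chr4:89294570-89294869 and chr4:89282143-89282442, GRCm38.p6).
Cdkn2a upstream: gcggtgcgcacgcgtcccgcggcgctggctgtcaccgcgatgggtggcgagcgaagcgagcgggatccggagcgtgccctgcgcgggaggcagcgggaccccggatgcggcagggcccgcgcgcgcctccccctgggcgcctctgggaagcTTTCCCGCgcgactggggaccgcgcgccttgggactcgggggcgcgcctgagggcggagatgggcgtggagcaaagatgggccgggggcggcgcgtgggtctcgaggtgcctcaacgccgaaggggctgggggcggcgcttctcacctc
Cdkn2a downstream: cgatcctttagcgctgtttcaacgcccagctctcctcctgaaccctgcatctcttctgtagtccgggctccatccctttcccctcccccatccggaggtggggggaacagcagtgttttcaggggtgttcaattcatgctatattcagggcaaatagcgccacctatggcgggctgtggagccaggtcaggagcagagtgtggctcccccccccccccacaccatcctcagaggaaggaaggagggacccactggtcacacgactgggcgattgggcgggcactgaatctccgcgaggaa

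In the p53 pathway, which p19Arf feeds into, 13 of 19 genes rose, 3 fell and 3 were not called, with a median of 0.48. The cell death genes Pmaip1 (Noxa) and Bbc3 (Puma) were among the risers. Pmaip1 read 6.82, 6.48, 6.05 and 6.16 in NEP tumors, against 2.91, 3.22, 2.46 and 2.33 in NEPs, and Bbc3 rose by 2.63. The receptor Eda2r rose by 2.30, the growth arrest gene Gadd45a by 1.94 and the p53 inhibitor Mdm2 by 0.47. Perp, a cell adhesion protein and p53 target, fell by 1.09. With NEP arrays 3 and 4 only, 11 of the p53 genes rose and 5 fell, and relative to NSCs 12 rose and 1 fell.

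In the Myc family and IGF axis, 10 of 21 genes rose, 10 fell and 1 was not called. Mycn, Mycl and Myc rose by 1.22, 1.42 and 0.81, with the partner Max at 1.12. The growth factor Igf1 fell by 1.57, and the binding proteins Igfbp2 and Igfbp4 by 4.03 and 3.55, while Igfbp3 rose by 1.02. With NEP arrays 3 and 4 only the differences were -3.36 for Igfbp2 and -2.33 for Igfbp4. The clearance receptor Igf2r fell by 2.10. Of 18 Polycomb and DNA methylation genes, 11 rose, 2 fell and 5 were not called. Their median was 0.33, with Cbx2 at 1.16, Bmi1 at 1.06 and the methyltransferase Ezh2 at 0.59, while the DNA methyltransferase Dnmt3a fell by 0.61. Against NSCs, 5 of the Polycomb and DNA methylation list rose and 4 fell, with a median of -0.01. Of the Myc and IGF list, 9 rose and 8 fell against NSCs, with a median of -0.22.

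What stood apart in the tumors from every normal population was read from genes called at least 2-fold higher, or lower, in NEP tumors than in each of NEPs, GNPs and NSCs. There were 265 higher genes (2.18%) and 203 lower genes (1.67%). NSCs share the tumors' run. The members were selected on these values, so their levels are given as a description.

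Sema3e, a secreted guidance factor, led the higher genes, with 9.12, 8.89, 8.95 and 8.88 in NEP tumors, against 2.43, 2.77, 2.21 and 2.60 in NEPs. GNPs (2.44) and NSCs (2.58) were as low as NEPs, and GNP tumors averaged 8.26. Cbln4, a secreted synaptic protein, averaged 7.31 in NEP tumors, 2.17 in NEPs and 7.27 in GNP tumors. The T-box factor Tbx1 averaged 6.57 in NEP tumors, 2.19 in NEPs and 5.89 in GNP tumors. Synaptotagmin 4 (Syt4) averaged 8.24 in NEP tumors, 3.68 in NEPs and 7.61 in GNP tumors. Dusp5, a phosphatase of the kinase ERK, averaged 8.05 in NEP tumors, 3.06 in NEPs and 7.24 in GNP tumors. For all of these the 4 tumor arrays lay within 1 unit of each other.

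Other higher genes differed between the tumor arrays or between the tumor types. Tecta, an inner ear matrix protein, read 6.14, 5.85, 8.67 and 8.23 in NEP tumors, against 1.37, 1.28, 1.66 and 1.68 in NEPs, with arrays 3 and 4 higher than arrays 1 and 2. Its mean was 2.60 in GNP tumors. Krt12, a keratin, read 5.41, 5.71, 6.98 and 6.52 in NEP tumors, against 1.18, 1.24, 1.24 and 0.96 in NEPs, and averaged 3.30 in GNP tumors. The activity-induced factor Npas4 averaged 6.78 in NEP tumors, 1.72 in NEPs and 4.92 in GNP tumors. Tmem163, a zinc transporter, split the NEPs instead, with 7.89, 8.0, 8.29 and 8.14 in NEP tumors, against 6.07, 6.05, 2.48 and 2.52 in NEPs. Its rise of 3.80 became 5.58 with NEP arrays 3 and 4 only.

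**Figure D5:**
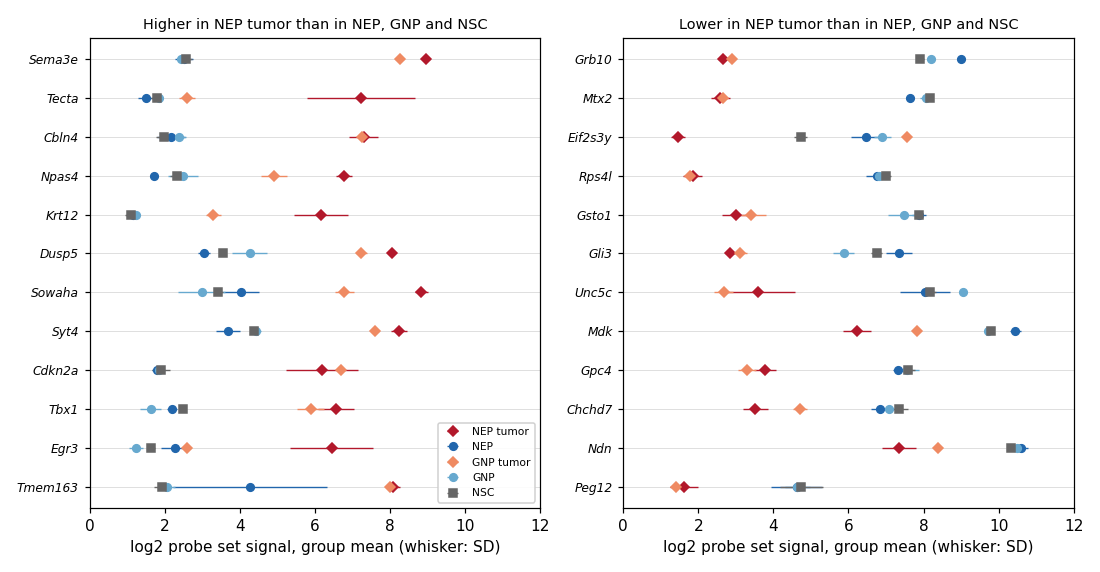
Group mean (symbol) and SD (whisker) of the log2 signal of 12 genes higher (left) and 12 genes lower (right) in NEP tumors than in NEPs, GNPs and NSCs. NEP tumors (dark red diamonds) and GNP tumors (orange diamonds) lie on the same side of the normal populations for most of these genes; Tecta, Krt12 and Egr3 were much higher in NEP tumors, and Eif2s3y was low in NEP tumors and not in GNP tumors.

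Among the lists, immediate early and stress genes held the largest share of higher genes, 13 of 24. They included the AP-1 members Fosb, Fosl2, Jun and Atf3, the Krüppel-like factors Klf2, Klf4 and Klf6, and the heat shock genes Hspa1a, Hspa1b and Hspb1. Of the CDK inhibitors Cdkn1a, Cdkn2a and Cdkn2b were among them. Of the p53 pathway 5 of 19 were higher than in every normal population, namely Cdkn1a, Bbc3, Pmaip1, Phlda3 and Eda2r. Of the Hedgehog targets 4 of 22 were, namely Cdk6, Ntrk3, Sox18 and Hsd11b2, and of the Wnt list Sfrp2, Fzd7 and Nkd1. GNP tumors had similar levels for 2 of these lists as a whole. The median of the p53 list averaged 6.97 in NEP tumors and 6.94 in GNP tumors, against 5.65 in NEPs, 6.14 in GNPs and 5.83 in NSCs. The median of the Hedgehog targets averaged 8.70 in NEP tumors and 8.54 in GNP tumors. No mitosis, radial glia or Polycomb gene was among the higher or lower genes.

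Grb10, an imprinted adaptor that restrains insulin and IGF receptors, led the lower genes. It read 2.67, 2.52, 2.60 and 2.81 in NEP tumors, against 8.95, 8.99, 8.93 and 9.15 in NEPs. GNPs averaged 8.20, NSCs 7.90 and GNP tumors 2.88. Its other 2 probe sets were near the bottom of the scale in both groups and differed by -0.48 and -0.74, so the size rests on 1 probe set. Mdk (midkine), a growth factor, averaged 6.22 in NEP tumors, 10.45 in NEPs and 7.82 in GNP tumors. The glypican Gpc4 fell by 3.54, and the imprinted genes Ndn and Peg12 by 3.24 and 3.00. These 3 genes averaged 3.78, 7.35 and 1.62 in NEP tumors, and 3.29, 8.38 and 1.39 in GNP tumors. The mitochondrial import protein Mtx2 fell by 5.05 and the glutathione transferase Gsto1 by 4.89. Mtx2 averaged 2.59 in NEP tumors and 2.65 in GNP tumors, and Gsto1 2.99 in NEP tumors and 3.40 in GNP tumors.

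The difference of differences showed which gene movements in the Nestin lineage differed from those in the Math1 lineage. It was called for 7520 genes (61.9%), 36.7% positive and 25.2% negative, with 6055 genes (49.8%) called in GNP tumors against GNPs. Sex-linked signal differed between the tumor groups too. The median of that list averaged 1.35 in NEP tumors, 5.21 in GNP tumors, 5.98 in NEPs and 6.21 in GNPs. Sex is not in the labels, and its part in this contrast was not tested. Atoh1 had an interaction of 5.95 (adjusted p = 1.4e-06), since it averaged 9.43 in GNP tumors and 8.85 in GNPs. Ptf1a had -8.19 (adjusted p = 2e-15), being dim in GNP tumors (1.99) and GNPs (2.07). Sox2 had -5.42 (adjusted p = 3.1e-11), since it was higher in GNP tumors (8.28) than in GNPs (5.50). Olig2 had -3.24 (adjusted p = 7.3e-05), with 6.80 in GNP tumors and 3.39 in GNPs. For Sema3e it was 0.64 (adjusted p = 0.0017), small beside its rise.

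By list, the radial glia genes had 15 negative and 1 positive called interactions of 20, and the Bergmann glia and astrocyte genes 23 negative of 23. The tumor groups were alike in mean list median, and the progenitors were not. Radial glia gave 6.84 in NEP tumors, 6.84 in GNP tumors, 9.58 in NEPs and 4.27 in GNPs. Bergmann glia and astrocyte genes gave 6.73, 6.99, 9.22 and 3.25 in the same order. In GNP tumors against GNPs, 13 radial glia genes rose and 4 fell, and 18 Bergmann glia and astrocyte genes rose and 1 fell. The G1/S genes had 32 positive and 1 negative of 37 and the mitosis genes 25 positive and 0 negative of 29. For the CDK inhibitors and pocket proteins 4 were positive and 1 negative of 11, with a median of 0.12. The median interaction over all genes tested was 0.15.

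Marker lists of other cell types moved with the group too, and their part in the results above was not tested. Of 19 microglia and macrophage genes 5 fell, 1 rose and 13 were not called, and with NEP arrays 3 and 4 only 1 fell and 14 rose. Csf1r, the receptor these cells need, read 4.76, 5.03, 6.55 and 5.81 in NEP tumors, against 11.16, 11.12, 7.22 and 3.51 in NEPs, so its arrays overlapped. Of 15 endothelial genes 11 fell and 1 rose, and with NEP arrays 3 and 4 only 5 fell and 1 rose. Of 19 pericyte, fibroblast and meningeal genes 16 fell and 2 rose, and 12 fell and 3 rose with NEP arrays 3 and 4 only. Of 13 ependymal and choroid plexus genes 9 fell and 3 rose. Of 3 erythroid genes 1 fell and 1 rose. The 10 lymphocyte genes on the array were below the signal filter. Relative to NSCs, 9 endothelial genes fell and none rose, and 11 pericyte, fibroblast and meningeal genes fell and 2 rose. Of the microglia and macrophage genes, 1 rose and none fell relative to NSCs.

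Immediate early and dissociation stress genes rose in 19 of 24 cases, fell in 1 and were not called in 4, with a median of 1.63. Fosb, an AP-1 subunit, read 8.79, 8.64, 8.55 and 8.64 in NEP tumors, against 4.88, 4.78, 3.72 and 5.27 in NEPs. Against NSCs, in the same run, 20 of these genes rose and none fell, and the list median was 7.82 to 8.55 on the NEP tumor arrays, 7.37, 7.36, 5.38 and 5.89 on the NEP arrays, and 8.13 to 8.19 on the GNP tumor arrays. The time between killing and RNA extraction is not given in the sources used here.

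Y-linked genes separated the groups as well. The Y-linked gene Eif2s3y read 1.57, 1.39, 1.66 and 1.23 in NEP tumors, against 6.64, 6.88, 5.93 and 6.40 in NEPs, and Kdm5d and Uty were likewise dim in NEP tumors. Xist, expressed from the inactive X chromosome, read 10.39, 10.04, 10.60 and 10.53 in NEP tumors, against 9.73, 9.67, 10.16 and 10.42 in NEPs, and averaged 2.94 in GNP tumors. Its NEP tumor and NEP arrays overlapped, and the difference of 0.40 (adjusted p = 0.0539) was not called. Its probe sets disagreed in size, with differences of 0.40, 2.14 and 0.09. Some alternatives called the rise, such as the mean of all probe sets, which gave 0.87 (adjusted p = 0.00072), so its call is not settled. Xist and the Y-linked genes were thus both present in NEPs, and sex, which the labels do not give, moved with the group. Its part in other genes was not tested.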

How the data were processed

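RNA from 19 samples was measured on Affymetrix Mouse430+2 arrays, 1 array a sample. The authors deposited log2 signals per probe set, made with RMA in Expression Console, per the submitters' processing notes. The chip holds 45101 probe sets, and all arrays had the same mean, 3.79. Probe sets were named by the platform annotation: 34945 had 1 gene symbol, 932 several and 9160 none, and 34741 were matched by gene ID to RefSeq genes of GRCm38.p6. The brightest probe set stood for a gene. Among 5243 called genes with several probe sets, 365 had another probe set called in the opposite direction. Genes above the array median on at least 3 arrays were tested, 12148 of 18193. A low-signal gene has a compressed fold, and the number of arrays limits the precision.

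Group means of the 5 groups were fitted over all 19 arrays with limma 3.58.1 in R 4.3.3, using two-sided moderated tests and Benjamini-Hochberg adjustment over all tested genes. The scheme was tested on simulated data with independent arrays and no run effect, so that test does not cover the NEP pairs or the runs. Titles gave the groups and the runs. Shared replicate numbers did not pair the arrays: deviations of same-numbered NEP tumor and NEP arrays correlated at -0.18, -0.12, -0.12 and -0.07. No 2 arrays held identical values. Named genes were the 12 largest differences in each direction without overlap, up to 4 called members of each list, the 12 genes furthest above and the 12 furthest below every normal population, the 6 largest interactions each way, and a set of markers; further list members are given with their values. The members and lists were chosen with earlier results of these data known. Alternatives changed the normalization, filter, probe set, variance model and arrays.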

Additional observations from a re-analysis of the deposited data

Results flagged for a closer look

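In 6 of 300 groups of 4 arrays, 1 array lay far from the other 3, with a gap beyond Dixon's critical value for 4 samples. Chance gives about 1 in 20. NEP tumor array 3 stood apart for Tbata (10.13, the lowest), Enkur (1.94) and the median of the sex-linked genes (1.57). NEP tumor array 2 stood apart for Cdkn2b, at 4.71, the highest of its group. NEP array 1 stood apart for Ednrb, at 10.23, and NEP array 4 for Bmpr1b, at 7.28. The causes were not tested.

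The difference between tumor and progenitor in the Nestin lineage was not that in the Math1 lineage for 7520 genes, by limma's test of the interaction (adjusted p below 0.05). An interaction is the Nestin-lineage difference minus the Math1-lineage difference, so its size can come from either. Sex-linked signal also differed between the tumor groups, and its part was not tested. Positive interactions were measured for Cadps2 (8.12), Xist (6.95), Uncx (6.21), Atoh1 (5.95), Tbata (5.90), Scg2 (5.87), Ccnd1 (1.52), Mycn (1.33) and Gli1 (1.30). Negative ones were measured for S1pr3 (-9.72), Aqp4 (-9.63), Pla2g7 (-8.59), Tnc (-8.30), Ednrb (-8.28), Ptf1a (-8.19), Sox2 (-5.42), Olig2 (-3.24) and Nes (-1.43). For Xist the Nestin-lineage difference was 0.40 and the Math1-lineage one -6.55. The differences were 3.43 and -4.69 for Cadps2 and 2.24 and -3.63 for Scg2.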

How the results depend on the processing

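For 126 genes followed through 22 alternatives, 2701 of 2756 values kept their side of the threshold. Of the others, 39 lost the call, 14 gained it and 2 reversed. A change of direction counted as a reversal only where the main fit or the alternative called the gene. Nes, called in neither, gave -0.27 with NEP tumor replicates 3 and 4 only, against 0.34. The reversed values were those of Csf1r (0.17) and Cx3cr1 (0.43) with NEP replicates 3 and 4 only. Counts moved by more than 1.5 times in 4 cases: 1619 genes were higher by at least 2-fold with the probe set of largest variance (1967 lower), and 1018 lower by at least 2-fold with the filter at the 75 percentile (791 higher). Genes above every normal population numbered 176 with that filter, and those below every one 122 with the mean of all probe sets. The stricter filter tests fewer genes (7932), and the other causes were not tested. Leaving out 1 replicate gave 7862 to 8547 genes called, 989 to 1169 higher and 1704 to 2032 lower by at least 2-fold. It gave 7086 to 7867 interactions, 4850 to 5749 genes called against NSCs, 256 to 281 genes above every normal population and 190 to 218 below. Centring the arrays raised the share of calls that were higher to 62.1%, against 52.6%. Among named genes the mean of all probe sets made Igf2 -2.62, Neurog1 -2.98, Fzd7 1.96, Boc 1.55 and Kdm5d -1.41, and the most variable probe set made Mycn 2.00.

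With the replicate block on the 8 arrays, 6054 genes were called, against 7023 without it. Only a number is shared, so this says nothing of a weaker effect. Low signal near background limits the size of the largest differences: 480 genes lower by at least 2-fold were dim in NEP tumors, and 116 higher ones were dim in NEPs.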

Other observations

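Imprinted genes, expressed from 1 parental copy, were listed after the low Grb10 values had been seen, so the list supports nothing by itself. Of 18 tested, 12 were lower in NEP tumors than in NEPs, 5 were higher and 1 was not called, with a median difference of -1.49. Meg3, a noncoding RNA, averaged 2.97 in NEP tumors and 5.24 in NEPs. Plagl1, a zinc finger factor, averaged 7.64 in NEP tumors, 9.25 in NEPs, 7.44 in GNP tumors and 11.07 in GNPs. Usp29 averaged 3.60 in NEP tumors and 1.85 in NEPs, and Nnat, which encodes neuronatin, 10.45 in NEP tumors and 9.86 in NEPs.

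Genes of MHC class II antigen presentation were also listed after their values had been seen. H2-Aa, an MHC class II chain, averaged 6.67 in NEP tumors, 3.66 in NEPs, 8.92 in GNP tumors, 2.02 in GNPs and 2.19 in NSCs. The invariant chain Cd74 averaged 5.64 in NEP tumors, 4.09 in NEPs and 8.04 in GNP tumors. Of 5 genes tested, 4 were higher in NEP tumors and 1, H2-DMa, was lower.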
